A study of Rattus norvegicus with 4 samples.

Results

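The mitochondrial fission and fusion genes examined here were 10 genes of the newborn rat hippocampus: Mfn1, Mfn2 and Opa1, which fuse mitochondria, Dnm1l, Fis1, Mff and Mief1, which divide them or recruit the dividing enzyme, Oma1 and Pink1, which act in mitochondrial quality control, and Ppargc1a, which drives the making of new mitochondria. They were chosen by name, as the rows whose gene symbol equals a member, and all 10 were found among the 17445 rows of the expression files, of which 16375 are listed for every library. RNA-seq had been made from Wistar rat pups on postnatal day 1, with 1 library per sex and treatment (control and BPA). The dams, 10 weeks old by the record of the series, had received vehicle, or bisphenol A (BPA) at 5000 µg/kg body weight. Dosing was daily, beginning on gestation day 1 and ending at birth. BPA is an endocrine disruptor present in polycarbonate plastics. Each library was a pool of 3 hippocampi, so the controls and the exposed pups share strain, age and dissection, and no group has a replicate library. A difference between libraries can therefore come from the pups or the tissue in the pool as well as from BPA or sex, and these cannot be told apart.

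Mitochondria continually join and split. The mitofusins Mfn1 and Mfn2 are GTPases of the outer membrane that tether and merge neighbouring mitochondria, and Opa1 is the GTPase that merges the inner membranes and holds the cristae in shape. Division is carried out by Drp1, the dynamin-like GTPase that Dnm1l encodes, which comes from the cytosol and is gathered on the outer membrane by receptors such as Mff, Mief1 (also called MID51) and Fis1. Oma1 is an inner membrane protease that cleaves Opa1 under stress, and Pink1 is a kinase that accumulates on damaged mitochondria and marks them for removal by mitophagy. Ppargc1a (PGC-1α) is a transcriptional coactivator of genes for mitochondrial biogenesis. In neurons these processes set the size of mitochondria and their delivery into axons and dendrites.

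The unit of the deposited values is FPKM, fragments scaled to the length of the gene model and the depth of the library, so levels can be compared between genes per length. Low values step by whole fragments, and the size of the steps gave 8612000 to 8894000 fragments per library, with 96.0% to 98.9% of the low values within 0.15 of a whole fragment. The 10 markers of hippocampal excitatory neurons were all detected, with a summed level of 480 to 525 FPKM, and the 6 markers of radial glia and astrocytes summed to 1017 to 1145 FPKM. Markers of neighbouring tissue differed more between the libraries. The 8 choroid plexus markers summed to 267 (control) and 708 (BPA) FPKM in males and to 9.81 and 45.9 FPKM in females, with none at the lowest listed value and Slc4a5 below 1 FPKM in every library. The 8 markers of meninges and vessel wall summed to 383 FPKM in female control against 129 to 151 in the other libraries. The 5 microglial markers summed to 20.1 to 27.9 FPKM, and the 3 red blood cell markers listed, of 4, to 2.47 to 3.45 FPKM. In bulk RNA of this kind, fewer cells of a type and less RNA per cell cannot be told apart.

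The sequences just upstream of the genes' start sites were searched for motifs of regulators of mitochondrial genes. RefSeq promoter windows of the rat assembly GRCr8, each with 250 bases before and 50 after a start site, were matched for 9 of the 10 members in 10 windows (Fis1 has 2 start sites), and Mfn2 had none. The motif TGACGTCA, the palindromic cAMP response element, was present in the windows of 2 members, Ppargc1a and Mief1, and in 1.83% of all 33469 windows. The NRF1 core CGCATGCG, held by 1.66% of all windows, and the nuclear receptor core AGGTCA, searched on both strands and held by 16.2%, were not found in the members' windows. The motifs do not overlap each other there, and a match is a description of the letters and not of binding. The 250 bases before the start site are shown for Ppargc1a and Mief1, which hold the motif, and for Pink1, the member with the widest range between libraries on the log2(FPKM + 1) scale, whose window held none of the motifs. Capitals mark the cAMP response element, whose first base lies 181 bases before the start site in Ppargc1a (chr14:63634058-63634307, plus strand) and 101 bases before it in Mief1 (chr7:113666668-113666917, plus strand). The Pink1 stretch is chr5:155825951-155826200 on the minus strand. They read, 5′ to 3′:
Ppargc1a: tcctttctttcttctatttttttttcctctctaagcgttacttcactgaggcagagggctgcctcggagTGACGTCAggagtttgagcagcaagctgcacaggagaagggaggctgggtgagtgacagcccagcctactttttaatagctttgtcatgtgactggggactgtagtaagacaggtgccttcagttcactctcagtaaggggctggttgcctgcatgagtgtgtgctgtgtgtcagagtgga
Mief1: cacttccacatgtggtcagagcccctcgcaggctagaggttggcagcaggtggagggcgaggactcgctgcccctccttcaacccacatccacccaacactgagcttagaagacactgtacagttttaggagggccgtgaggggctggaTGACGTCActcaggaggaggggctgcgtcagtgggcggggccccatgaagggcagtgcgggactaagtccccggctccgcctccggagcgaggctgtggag
Pink1: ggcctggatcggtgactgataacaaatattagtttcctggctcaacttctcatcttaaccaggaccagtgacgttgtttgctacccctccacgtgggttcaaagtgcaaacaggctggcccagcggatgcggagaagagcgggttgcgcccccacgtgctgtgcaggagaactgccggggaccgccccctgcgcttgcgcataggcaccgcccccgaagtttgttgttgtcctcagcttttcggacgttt

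The members spanned a wide range of levels. Mff was the most abundant, at 107 ± 9.93 FPKM (mean ± SD over the 4 libraries), followed by Fis1 at 85.5 ± 2.66 FPKM, and the 2 did not overlap in any library. Next came 5 members whose ranges overlapped in steps and whose order is therefore not settled: Dnm1l at 42.6 ± 4.98 FPKM, Mfn2 at 42.4 ± 1.86, Pink1 at 41.3 ± 9.90, Opa1 at 38.2 ± 2.38 and Mfn1 at 32.3 ± 3.25. Mief1 was lower in every library, at 14.0 ± 0.411 FPKM, then Ppargc1a at 5.52 ± 0.930 and Oma1 at 1.44 ± 0.374 FPKM. Relative to 13171 rows with a gene ID, the level of Mff was above 95.4% of rows, that of Mief1 above 60.1% and that of Oma1 above 20.5%. Oma1 thus rested on 17 to 29 fragments per library and Ppargc1a on 88 to 131, while every other member had at least 549. The SDs mix sex, treatment and the pool. The members that varied least were Mief1 and Fis1, with coefficients of variation of 2.93% and 3.11%, and those that varied most were Oma1 at 26.0% and Pink1 at 23.9%.

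**Figure D1:**
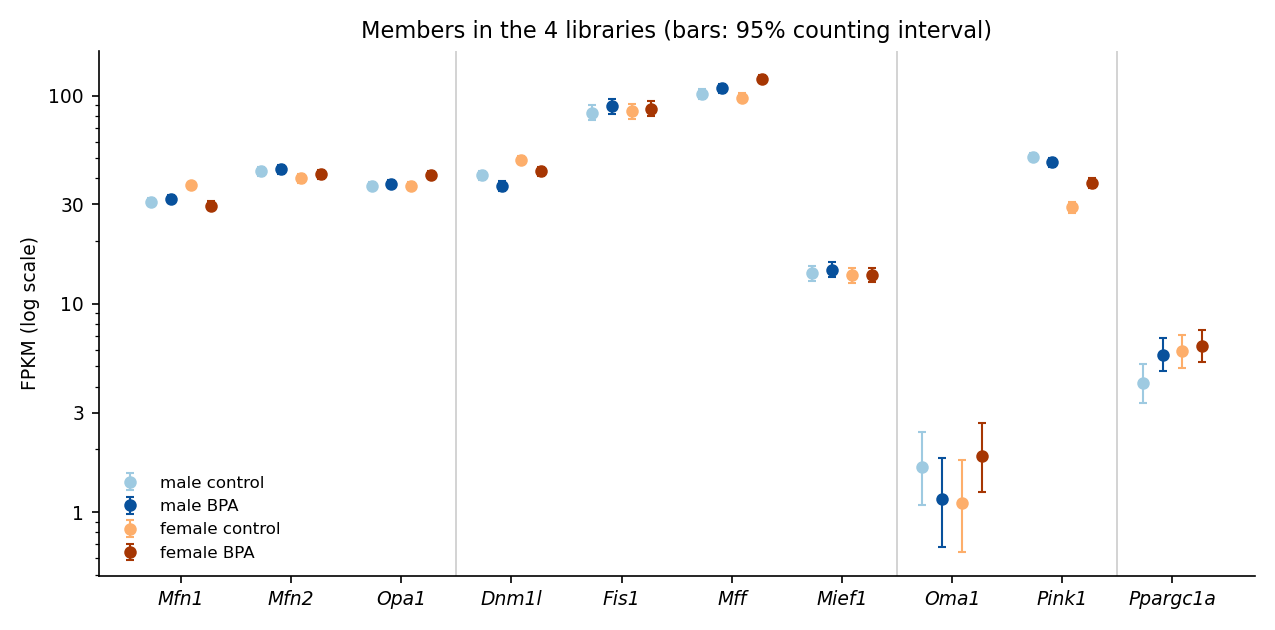
Level of each member (x axis, grouped as fusion, fission, quality control and biogenesis) in FPKM on a log scale (y axis), with 1 point per library and bars for the 95% counting interval. Mff and Fis1 stand highest in all 4 libraries, Oma1 lowest, and Pink1 runs from 29.0 FPKM in female control to 50.7 in male control.

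Of the fusion genes, Mfn1 (gene ID 192647) was at 30.9 (control) and 32.0 (BPA) FPKM in males and at 37.0 and 29.6 FPKM in females. Here and below, the control value comes first in each sex. Female control stood above the other libraries, which lay close together. The log2 ratio of BPA to control was 0.05 in males, with a 95% counting interval of -0.04 to 0.14, and -0.32 in females, with an interval of -0.42 to -0.23. These intervals, computed from the estimated fragments with the exact binomial method, cover counting error and no difference between pups. Female changes differed with gene length. Among rows with a gene ID, their median log2 fold change was -0.089 for gene models of 5000 bases or more and 0.000 for those under 1500 bases. The Mfn1 model has 6852 bases. Each length class was then centred on its own median, a step added after the data were seen. The log2 fold change of Mfn1 in females moved from -0.31 to -0.23. That of Opa1, described next, whose model has 5475 bases, moved from 0.18 to 0.27. The part of gene length in the Mfn1 difference was not tested. The female control library also had the highest sum of meningeal markers, given above, whose part in the Mfn1 difference was not tested.

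Mfn2 (gene ID 64476) was at 43.4 (control) and 44.3 (BPA) FPKM in males and at 40.0 and 41.9 FPKM in females. BPA over control gave a log2 ratio of 0.03 in males (counting interval -0.07 to 0.13) and 0.06 in females (-0.04 to 0.17). The other mitofusin was thus steadier than Mfn1, and the ratio of Mfn1 to Mfn2, free of the scaling of a library, was 0.711 (control) and 0.723 (BPA) in males and 0.924 and 0.706 in females. Opa1 (gene ID 171116) was at 36.8 (control) and 37.5 (BPA) FPKM in males and at 36.8 and 41.7 FPKM in females. Its log2 ratio was 0.03 in males (counting interval -0.07 to 0.12) and 0.18 in females (0.09 to 0.28), so that female BPA stood alone above 3 close libraries. Opa1 can be made as long or short protein forms by splicing and cleavage, which a value per gene does not resolve. The summed level of the 3 fusion genes was 111 (control) and 114 (BPA) FPKM in males and 114 and 113 FPKM in females.

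Of the fission genes, Dnm1l (gene ID 114114), which encodes the enzyme that constricts mitochondria, was the only member whose counting interval lay below 0 in both sexes. It was at 41.5 (control) and 36.8 (BPA) FPKM in males and at 48.8 and 43.2 FPKM in females. The log2 ratio of BPA to control was -0.17 in males (counting interval -0.27 to -0.07) and -0.18 in females (-0.27 to -0.08), a level 11.3% and 11.6% lower. The treatments nevertheless overlapped when the sexes were pooled, since female BPA lay above male control. Of the rows with a gene ID, 18.1% in males and 28.4% in females fell by as much or more on the log2(FPKM + 1) scale. With the length classes centred as for Mfn1, the log2 fold change of Dnm1l was -0.17 in males and -0.12 in females.

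Mff (gene ID 301563), the outer membrane receptor that gathers Drp1, was at 102 (control) and 109 (BPA) FPKM in males and at 97.8 and 120 FPKM in females. Both BPA libraries stood above both control libraries, and 33.6% of all rows were separated by treatment in either direction. BPA over control gave a log2 ratio of 0.09 in males (counting interval -0.00 to 0.19) and 0.30 in females (0.20 to 0.40). Dnm1l and its receptor thus had opposite signs in both sexes, and the ratio of Dnm1l to Mff was 0.408 (control) and 0.339 (BPA) in males and 0.499 and 0.358 in females. This ratio was formed after the members' values had been seen, and it has no test.

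Fis1 (gene ID 288584), a small protein anchored in the outer membrane, was at 82.7 (control) and 88.6 (BPA) FPKM in males and at 83.9 and 86.6 FPKM in females. Its BPA libraries were above its control libraries, by a log2 ratio of 0.10 in males (counting interval -0.07 to 0.27) and 0.05 in females (-0.13 to 0.22). Mief1 (gene ID 315141) was at 14.0 (control) and 14.6 (BPA) FPKM in males and at 13.7 and 13.8 FPKM in females, a spread within its counting error. Its paralogue Mief2 (MID49) was listed only as 3 new gene models, whose summed level was 14.9 (control) and 13.9 (BPA) FPKM in males and 12.2 and 11.9 FPKM in females. No new gene model matched the protein of a member. The summed level of the 4 fission genes was 240 (control) and 249 (BPA) FPKM in males and 244 and 264 FPKM in females.

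Of the quality control genes, Pink1 (gene ID 298575) had the widest range on the log2(FPKM + 1) scale, 0.79. It was at 50.7 (control) and 47.7 (BPA) FPKM in males and at 29.0 and 37.9 FPKM in females. Both male libraries stood above both female libraries, and female control was the lowest. Against control, the log2 ratio of BPA was -0.09 in males (counting interval -0.18 to 0.01) and 0.39 in females (0.27 to 0.51). The log2 ratio of male to female was 0.81 among controls (counting interval 0.70 to 0.92) and 0.33 among BPA libraries (0.23 to 0.44). Mfn2, a substrate of Pink1, had a narrower range, and the ratio of Pink1 to Mfn2 was 1.17 (control) and 1.08 (BPA) in males and 0.724 and 0.906 in females. The markers of meninges and vessel wall were highest in the same female control library, and those of choroid plexus were higher in both male libraries than in both female libraries. Their part in the Pink1 difference was not tested.

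Oma1 (gene ID 298282) was at 1.65 (control) and 1.15 (BPA) FPKM in males and at 1.10 and 1.86 FPKM in females, from 26, 18, 17 and 29 fragments. Its log2 ratio of BPA to control was -0.52 in males (counting interval -1.48 to 0.40) and 0.76 in females (-0.16 to 1.71), and no difference was detectable at this depth. Ppargc1a (gene ID 83516), whose promoter window holds the cAMP response element, was at 4.17 (control) and 5.70 (BPA) FPKM in males and at 5.92 and 6.28 FPKM in females. Male control was the lowest library, and the other libraries lay within their counting error. Against control, the log2 ratio of BPA was 0.45 in males (counting interval 0.04 to 0.87) and 0.09 in females (-0.28 to 0.45). Mief1, the other member with the motif, had log2 ratios of 0.06 in males and 0.01 in females.

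**Figure D2:**
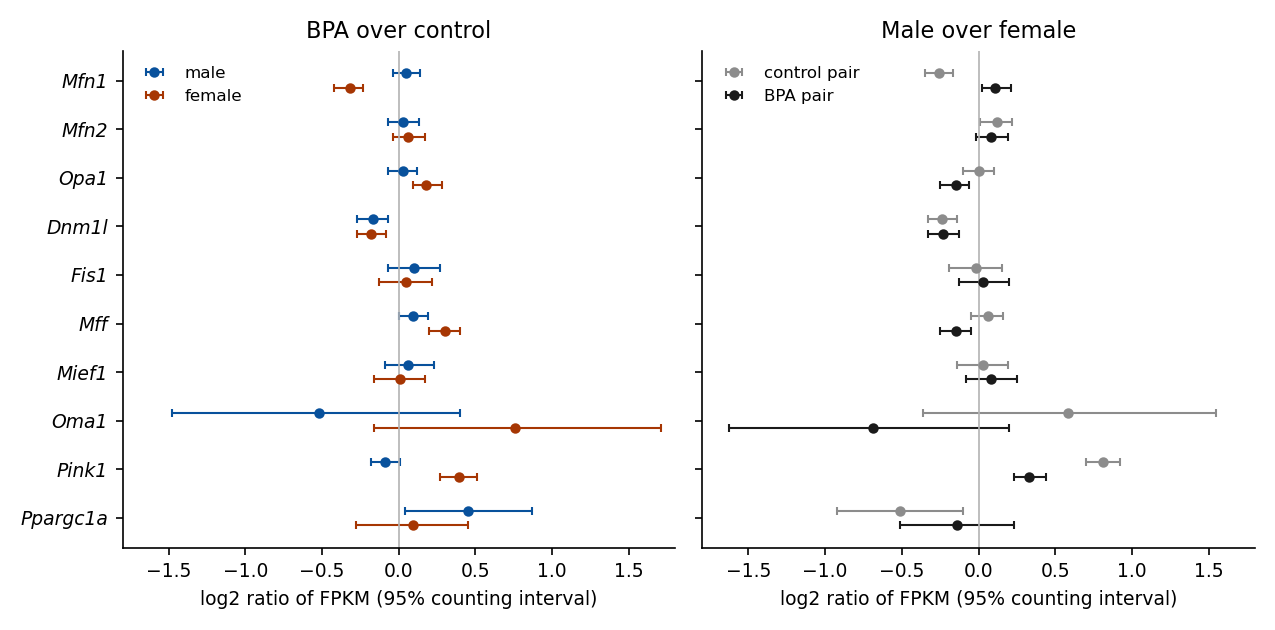
Log2 ratio of FPKM (x axis) for each member (y axis), with BPA over control in males and females on the left and male over female within controls and within BPA libraries on the right. Bars are 95% counting intervals, and Dnm1l lies below 0 in all 4 comparisons while Pink1 in the control pair of males and females reaches 0.81.

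The effect of BPA with both sexes together was tested on log2(FPKM + 1) with limma, 2 BPA libraries against 2 control libraries, over 13542 rows whose mean was 1 FPKM or more. None of the 10 members passed an adjusted p of 0.05, and 0% of all rows did. At an unadjusted p of 0.05 the test called 0 members and 637 rows, or 4.70%. The fitted log2 fold change was 0.22 ± 0.191 (SE) for Ppargc1a, 0.20 ± 0.101 for Mff and -0.17 ± 0.131 for Dnm1l, each with an adjusted p of 0.973. Single libraries decided these sizes. Ppargc1a was at 0.01 without male control and 0.43 without female control, Mff at 0.12 without female BPA, and Dnm1l at -0.06 without female control or without male BPA and at -0.29 without male control. Pink1, fitted at 0.15, was at 0.54 without male control, -0.25 without female control and -0.02 without male BPA. In 3 members, Fis1, Mff and Opa1, both BPA libraries lay above both control libraries, whereas 33.6% of all rows were separated in either direction. The smallest two-sided p that exact permutation of these 4 libraries allows is 0.333, so no member was called that way.

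Within a sex there is no replicate and no test, and the members are described by size on the log2(FPKM + 1) scale, which understates changes of low genes. No member reached an absolute log2 fold change of 1 in males, where 1.70% of 13508 rows did, or in females, where 2.32% of 13550 rows did. At 0.25, 2 members passed in males, Ppargc1a at 0.37 and Oma1 at -0.30, against 24.6% of all rows. In females 4 members passed, Oma1 at 0.45, Pink1 at 0.38, Mff at 0.30 and Mfn1 at -0.31, against 32.3% of all rows. These shares of members are close to the background. No member passed 0.25 in the same direction in both sexes, which 7.12% of rows did. The median log2 fold change of the members was 0.040 in males, where the median of all rows was -0.002, and 0.068 in females, where it was -0.038. In absolute size the median was 0.090 for the members and 0.130 for all rows in males, and 0.176 and 0.163 in females.

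**Figure D3:**
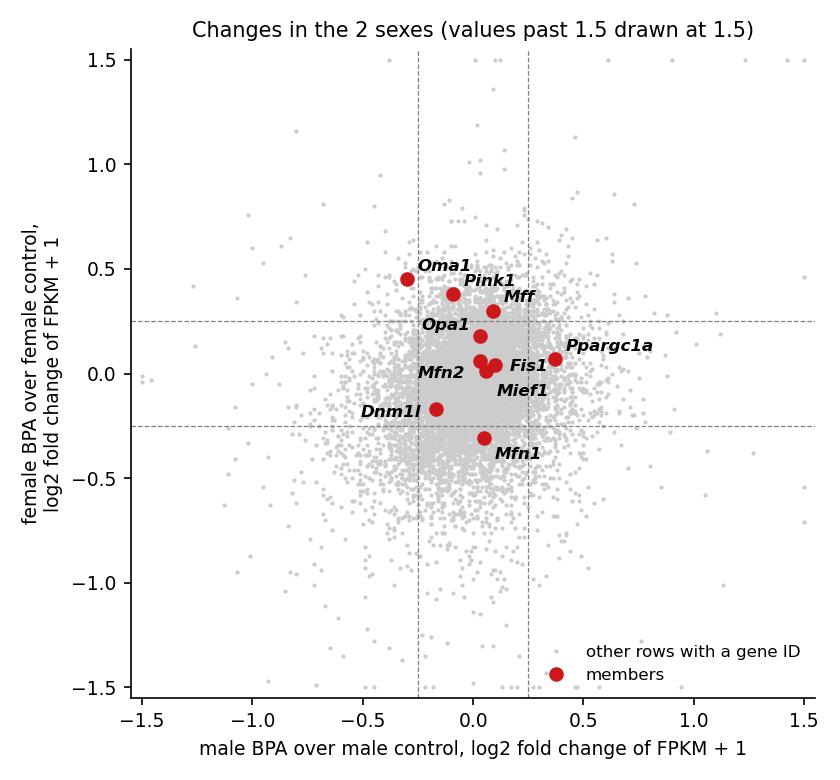
Log2 fold change of FPKM + 1 in males (x axis) and females (y axis) for rows with a gene ID at a mean of 1 FPKM or more (grey) and for the 10 members (red), with dashed lines at 0.25 in either direction. The members lie within the cloud of the other rows, and none is in a corner where both sexes pass 0.25 in the same direction.

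Because every comparison also has a sex, the members were compared between male and female libraries with the treatments together. None of the members passed an adjusted p of 0.05 in limma, and 1 of 13542 rows did, or 0.00738%. At an unadjusted p of 0.05, 1 member, Pink1, was called beside 1442 rows, or 10.6%. The fitted male to female log2 fold change of Pink1 was 0.56 ± 0.131 (SE), with an adjusted p of 0.269 in limma, and 1.81% of the rows with a gene ID differed by as much or more in either direction. For Dnm1l the log2 fold change was -0.23 ± 0.102 (SE) with an adjusted p of 0.495, and for Ppargc1a it was -0.27 ± 0.183 with an adjusted p of 0.641. In 5 members, Dnm1l, Mfn2, Mief1, Pink1 and Ppargc1a, the male and female libraries did not overlap, against 42.3% of all rows. Mfn1 changed its order with treatment: its log2 ratio of male to female was -0.26 among controls (counting interval -0.35 to -0.17) and 0.11 among BPA libraries (0.02 to 0.21). Whether the effect of BPA differs between the sexes could not be tested, since 4 libraries leave no residual degree of freedom for an interaction.

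The rows most like Pink1 were sought among 161 other rows whose mean was 5 FPKM or more, whose range over the 4 libraries was at least as wide and which carry a gene ID. Sox12, a transcription factor of neural progenitors, was at 89.0 (control) and 81.4 (BPA) FPKM in males and at 36.8 and 55.6 FPKM in females. Rprml was at 93.9 and 86.7 FPKM in males and at 48.4 and 62.2 in females, and Rnf151 at 79.2 and 80.8 in males and at 22.0 and 45.6 in females. Their likeness to Pink1, as Pearson's r over these 4 libraries on the log2 scale, was 0.9999, 0.9945 and 0.9921. With 4 points and 161 candidates this is a description of these libraries.

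The members' pathways were followed in 6 lists of other genes for the regulation of fission and fusion, inner membrane proteases, the MICOS complex of cristae junctions, mitophagy, biogenesis and transport, with 80 of 86 listed genes found and 78 at a mean of at least 1 FPKM. None of the 78 passed an adjusted p of 0.05 in limma for BPA, and 1, Rhot2, passed an unadjusted p of 0.05, as 4.70% of all rows did. In males 7 were higher with BPA by at least 0.25 on the log2(FPKM + 1) scale and 5 lower by as much, and in females 8 were higher and 4 lower. In each sex these are 15.4% of the listed genes, against 24.6% of all rows in males and 32.3% in females. Most listed genes have a mean of at least 5 FPKM, and of rows at that level 16.5% passed in males and 24.4% in females. Against those rows the share of listed genes was close in males and lower in females. The lists' median log2 fold changes lay between -0.077 and 0.049 in males and between -0.033 and 0.038 in females, near the medians of all rows. Only Pprc1, a coactivator related to Ppargc1a, passed 0.25 in the same direction in both sexes, as 7.12% of all rows did. It was at 8.59 (control) and 10.5 (BPA) FPKM in males and at 8.17 and 10.6 FPKM in females, with log2 fold changes of 0.26 and 0.34 and an adjusted p of 0.973 in limma.

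The other genes named from the lists did not pass 0.25 in the same direction in both sexes. Rhot2, an adaptor that links mitochondria to microtubule motors, was at 15.3 (control) and 12.8 (BPA) FPKM in males and at 14.8 and 11.3 FPKM in females, with both BPA libraries below both controls. Armcx1, also a protein of mitochondrial transport, had log2 fold changes of -0.19 in males and -0.27 in females. Among the regulators of fission and fusion, Slc25a46, an outer membrane protein, was at 25.0 (control) and 28.9 (BPA) FPKM in males and at 26.7 and 32.5 FPKM in females, and Usp30, a deubiquitinase of the outer membrane that opposes mitophagy, was at 16.4 and 20.0 FPKM in males and at 16.5 and 19.1 in females. In both genes the BPA libraries lay above the control libraries. Rhot2, Slc25a46 and Usp30 were named because their changes share a sign in both sexes, which favours such a separation. Of all rows, 33.6% were separated by treatment in either direction.

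Among the inner membrane proteases, Spg7 had log2 fold changes of -0.11 in males and -0.26 in females and the matrix protease Lonp1 of -0.17 and -0.15. In the MICOS list, Micos10 had log2 fold changes of 0.08 and 0.39 and Samm50, the outer membrane partner of the complex, of -0.09 and -0.07. For mitophagy, the receptor Fundc1 had log2 fold changes of -0.22 and -0.15. For biogenesis, Twnk, the helicase of mitochondrial DNA, had log2 fold changes of 0.29 and 0.21. Polg2, the accessory subunit of the mitochondrial DNA polymerase, was the only listed gene past 0.5 in either sex, at 4.41 (control) and 2.81 (BPA) FPKM in males and at 2.86 and 3.03 FPKM in females.

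**Figure D4:**
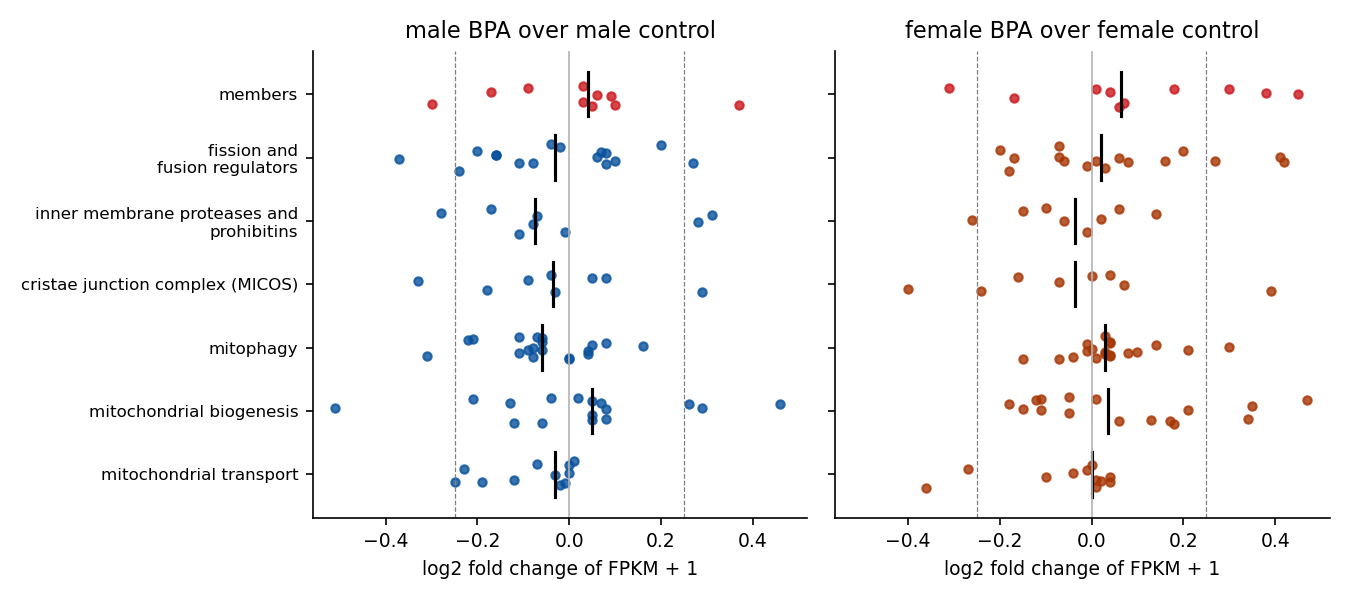
Log2 fold change of FPKM + 1 (x axis) of BPA over control in males (left) and females (right) for the members and the genes of the 6 lists (y axis), with 1 point per gene, a black bar at each median and dashed lines at 0.25 in either direction. The medians lie near 0 in both sexes, and Polg2 at -0.51 in males is the farthest point.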

How the data were processed

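RNA-seq was measured in 4 libraries, 1 per sex and treatment, each from 3 pooled hippocampi. The authors deposited FPKM per gene model and library, with 0.01 as the lowest value. The submitters' processing notes name HISAT 0.1.6, Bowtie2 2.2.5, RSEM and the genome build rn6. The annotation is not given in the sources used here. RefSeq promoter windows are of the assembly GRCr8, so no coordinates were shared between the builds.

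Groups were taken from the labels. Rows whose mean was 1 FPKM or more were fitted as log2(FPKM + 1) in limma 3.58.1 (R 4.3.3), using eBayes with a trend, no covariate and Benjamini-Hochberg adjustment over all rows tested. With 1 pool per group, its p-values measure the spread between pools of different sex for BPA and between pools of different treatment for sex. Within a sex no test was made. Joins used Python 3.11.15 with pandas 2.3.3 and numpy 2.4.6, intervals scipy 1.17.1 and figures matplotlib 3.10.9. Library depth is the fragment number that makes low values of gene models of 300 to 1500 bases whole. Fragments behind a value follow from that depth, and 95% intervals of a level are exact Poisson and those of a ratio exact binomial. The limma step was tested on simulated data.

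The members, the pathway and marker lists and the thresholds were chosen with earlier results of these data known. All members are named. From each list, the 2 genes whose changes share a sign in both sexes with the largest smaller size are named, as is any gene past 0.5 in either sex. A gene that this rule takes from the mitophagy list is not reported here. Rows most like a member were taken for the member with the widest range. The alternatives were the other factor as a covariate, a pseudocount of 0.1, no filter, a mean of 5 FPKM or more, quantile normalization, leaving out each library, summing with new gene models, a threshold of 0.5 and, chosen after seeing the data, centring by length class.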

Additional observations from a re-analysis of the deposited data

Results flagged for a closer look

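Of the genes named, 3 members and the listed gene Polg2 had log2 fold changes of BPA against control with opposite signs in male and female libraries. Opposite signs were common: 5855 of 13542 rows (43.2%) and 40 of the 78 listed genes (51.3%) had them, so the 3 of 10 members are not more than the background. The difference between the sexes was not tested, since each sex has 1 library per treatment. Mfn1 was at 0.05 in males and -0.31 in females on that scale, a difference of -0.37 (female minus male). For Pink1 it was -0.09 in males and 0.38 in females, a difference of 0.46. For Oma1 it was -0.30 in males and 0.45 in females, a difference of 0.75, from 17 to 29 fragments per library. For Polg2 it was -0.51 in males and 0.06 in females, a difference of 0.57.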

How the results depend on the processing

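With 1 pool per group, these data limit the members to size and counting error, and Oma1 and Ppargc1a have the fewest fragments. No member passed an adjusted p of 0.05 in limma under any alternative, for BPA or for sex, and no member passed the size threshold in the same direction in both sexes under any alternative. Over all rows, the limma calls for BPA were 2 with sex as a covariate, which pairs the libraries by sex, and 0 to 3 when a library was left out (3 without female control and 1 without male BPA), a lone library then being assumed to vary like the others. Members at an unadjusted p of 0.05 for BPA were 1 with sex as a covariate, Mff, and 0 to 1 when a library was left out, Pink1 without male control. For male against female, the rows called were 55 with treatment as a covariate, 21 with a mean of at least 5 FPKM and 1 to 2 when a library was left out, 2 without female control. Members at an unadjusted p of 0.05 were 2, Pink1 and Dnm1l, with treatment as a covariate, 2 with quantile normalization and 1 to 2 when a library was left out, 2 without female BPA. The fitted BPA change of Pink1 ran from -0.25 to 0.54 when a library was left out. The fitted sex difference of Pink1 was 0.37 without the female control library and 0.74 without female BPA, with adjusted p from 0.0941 to 0.956 in limma over the alternatives.

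Centring by length class left 4 members past 0.25 in females, with Opa1 (0.27) in place of Mfn1 (-0.23). Members past the size threshold in males were 0 with a mean of at least 5 FPKM and 0 with a threshold of 0.5, and in females 0 with a threshold of 0.5, 3 with quantile normalization, where Mff was at 0.23, and 3 with a mean of at least 5 FPKM, which leaves out Oma1. Another pseudocount, quantile normalization and centring by length class gave 60 fold changes of members within a sex, of which 60 moved by less than their counting interval and 1 changed sign, Opa1 in males, at -0.01 when centred by length class. Summing with new gene models changed no member, as no new model matched any of them.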
